A study of Rattus norvegicus with 36 samples.

Results

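The analysis concerned 55 genes of the rat ventral striatum (nucleus accumbens) that were low after 1 day of cocaine and back up after 5 days. They were found among 31546 genes in the count tables, of which 13607 had a mean of at least 40 normalized counts over the 9 pools. A gene was taken when all 3 Sal–Coc pools lay below all Sal–Sal and all Coc–Coc pools, the log2 ratio of the Sal–Coc to the Sal–Sal mean was at most -0.5 and the log2 ratio of the Coc–Coc to the Sal–Coc mean was at least 0.5. A further 8 genes, 7 of which met these conditions, were left out by identifier. The genes were thus selected on their fall and their recovery, so both are given below as descriptions without a test. The mirrored rule, high after 1 day and back down after 5, took 47 genes.

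The rats were male Sprague-Dawley animals 8 weeks of age, without a transgene or a deletion, and all received intraperitoneal injections 3 times a day for 5 days. The Sal–Sal animals were given saline throughout (15 injections), the Coc–Coc animals 15 injections of cocaine at 20 mg/kg, and the Sal–Coc animals saline and then 3 injections of cocaine at 20 mg/kg on the last day. The labels give 13 saline injections for Sal–Coc and the study's methods give 12. Tissue was taken 24 h after the last injection, so that both cocaine groups were compared at the same interval from cocaine. Each group held 3 pools, and each pool is described as 2 rats in the methods (1 rat in the labels) and was sequenced as 4 technical replicates, which were summed. Totals ranged from 36372166 to 42449841 counts per pool. Values below are normalized counts, that is summed counts divided by a median-of-ratios size factor, and group values are means ± SD of n = 3 pools.

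The nucleus accumbens is made largely of GABAergic projection neurons that receive glutamate from the cortex, hippocampus, thalamus and amygdala and dopamine from the midbrain. Cocaine blocks dopamine reuptake there, and repeated exposure is known to alter glutamate receptors, transcription factors of the CREB family and chromatin regulators in these neurons. A gene expressed in fewer cells of a type and a gene with less RNA per cell cannot be told apart in bulk tissue. Of 53 marker genes listed for neurons, glia, vessels and blood, 4 could be paired with an identifier (Hba-a2, Flt1, Vwf and Pvalb), so the defining markers of the labelled tissue were not checked.

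A symbol could be given to 39 of the 55 genes, all of them from the study's published gene lists. They included genes of glutamate and GABA signalling (Grin2b, Grm3, Grm5, Slc1a2, Gabrb1, Lrrc7). Receptor tyrosine kinases and intracellular signalling formed another group (Egfr, Epha6, Prex2, Psd3, Taok1, Map3k2). Other groups were large vesicle-trafficking and lipid-transfer proteins (Vps13a, Vps13b, Lyst, Nbeal1) and RNA silencing and export (Ago3, LOC679894). Chromatin and transcription (Tet1, Kdm7a, Phc3, Creb1, Cebpd, Csrnp3, Scai, Zfp704) and surface, matrix and adhesion proteins (Lrp1b, Vcan, Lpp, Mfap3l) were also present. The last groups were ubiquitin enzymes (Birc6, Fam63b) and metabolism (Ppp1r3g, Fmo1, Cyp7b1). Further named genes were Fam228b, Car8 and LOC683593. This grouping was made after the genes were known.

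In RefSeq (build GRCr8), 25 of the 39 named genes had a start-site window of 250 bases before to 50 after the start. A total of 4 sequences, each the 250 bases upstream of the start on the gene's strand, are shown because they belong to members described below and hold a motif that was searched for. Capitals mark TGACG, the core of the cAMP response element bound by CREB, on either strand in the first 3. In the last, they mark the palindromic motif of nuclear respiratory factor 1. The sequence of LOC679894 also holds that motif and the AP-1 motif TGANTCA, both left in lower case.
LOC679894, chr14:5539647-5539896, minus strand: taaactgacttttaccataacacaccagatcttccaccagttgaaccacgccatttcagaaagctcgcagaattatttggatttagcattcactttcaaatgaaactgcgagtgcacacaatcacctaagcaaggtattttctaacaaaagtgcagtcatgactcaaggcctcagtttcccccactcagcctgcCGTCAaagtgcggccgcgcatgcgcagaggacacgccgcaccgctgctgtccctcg
Ago3, chr5:143998738-143998987, minus strand: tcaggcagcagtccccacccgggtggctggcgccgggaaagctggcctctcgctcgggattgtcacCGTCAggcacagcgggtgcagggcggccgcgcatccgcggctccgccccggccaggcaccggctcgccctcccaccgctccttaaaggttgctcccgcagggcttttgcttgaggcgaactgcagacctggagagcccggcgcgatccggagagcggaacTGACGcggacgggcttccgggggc
Creb1, chr9:73397259-73397508, plus strand: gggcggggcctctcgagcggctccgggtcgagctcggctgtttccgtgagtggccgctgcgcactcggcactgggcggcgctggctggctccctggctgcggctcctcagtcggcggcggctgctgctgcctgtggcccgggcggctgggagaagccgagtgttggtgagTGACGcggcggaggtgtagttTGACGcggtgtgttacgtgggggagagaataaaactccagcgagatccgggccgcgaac
Vps13a, chr1:223555332-223555581, minus strand: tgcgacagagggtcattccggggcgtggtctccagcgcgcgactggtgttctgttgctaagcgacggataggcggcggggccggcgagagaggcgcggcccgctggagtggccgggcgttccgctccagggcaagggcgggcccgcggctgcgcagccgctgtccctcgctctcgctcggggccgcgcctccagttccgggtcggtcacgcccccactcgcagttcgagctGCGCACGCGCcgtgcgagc
Creb1 had 2 start-site windows in RefSeq and the one shown holds the motif 80 and 59 bases before the start. TGACG was present in 10 of the 25 genes with a window (40%, against 23.0% of 27457 RefSeq genes), namely Ago3, Creb1, Kdm7a, LOC679894, LOC683593, Map3k2, Nbeal1, Ppp1r3g, Scai and Vcan. The full element TGACGTCA, which contains TGACG, was found in 1 gene (4%, against 2.00% of all genes), LOC679894, within the 50 bases after the start. The motif of nuclear respiratory factor 1 was found in 6 genes (24%, against 6.34%), which were Gabrb1, LOC679894, LOC683593, Lyst, Map3k2 and Vps13a. CCAAT was found in 12 genes (48%, against 39.6%), the AP-1 motif TGANTCA in 1 (4%, against 8.04%) and the E-box CACGTG in 1 (4%, against 7.08%). The median G+C content of the windows was 60% in the named genes and 52.3% in all genes. These matches are letters in a window, searched on both strands, and no binding was measured. The background was all RefSeq genes, not the genes tested here, and was not matched for G+C content or number of windows. The shares therefore do not show an enrichment of any motif.

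Over the 55 genes, the Sal–Coc mean was between 20.8% and 70.1% of the Sal–Sal mean, with a median of 60.6%. The Coc–Coc mean was between 42.0% and 109% of the Sal–Sal mean, with a median of 94.2%. In the median gene, 87.6% of the fall on the log2 scale was regained, and the range was 44.8% to 122%. The groups hold different rats, so fall and recovery are differences between groups and were not followed within an animal. The rule itself sets the least share that can be regained, and this floor is higher for genes with a small fall. Genes near the thresholds were Fam63b, just inside with a log2 ratio of 0.50 between Coc–Coc and Sal–Coc, and Fzd3, just outside with 0.49. Between Sal–Coc and Sal–Sal, the genes next to the threshold, both without a symbol, stood at -0.51 just inside and -0.49 just outside.

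**Figure D1:**
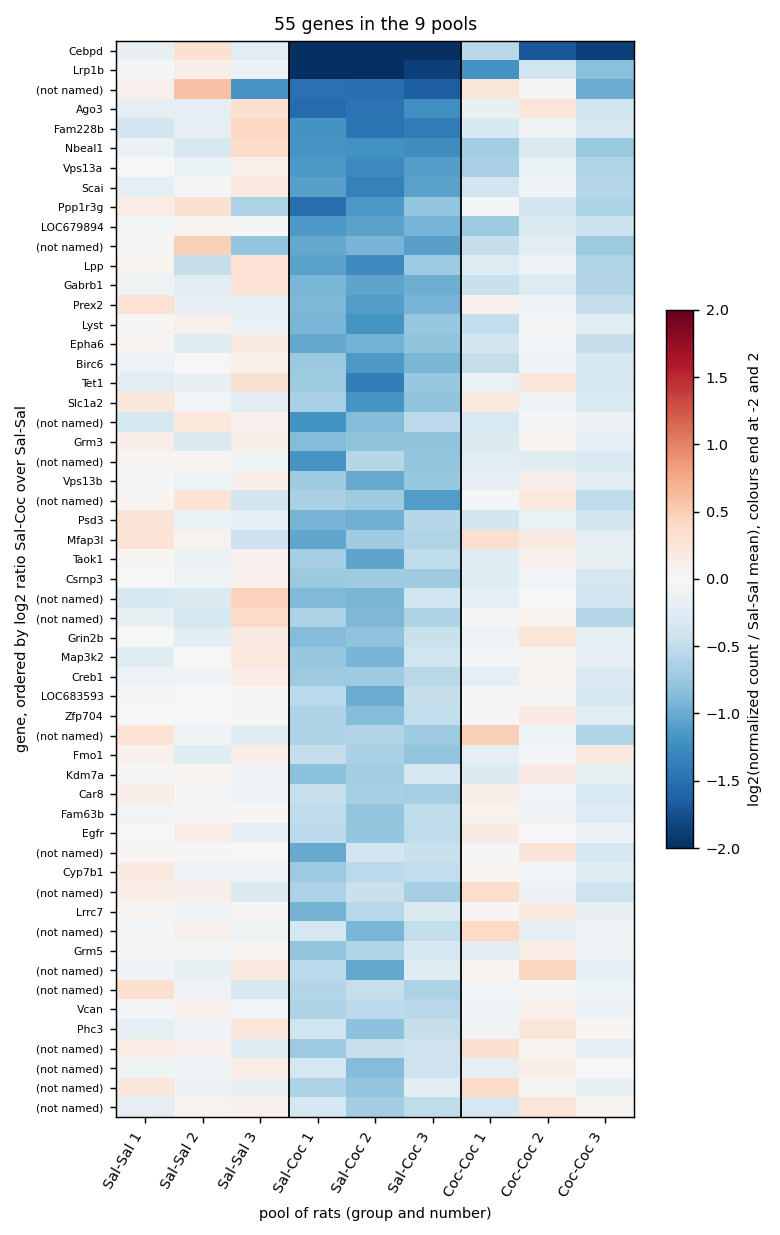
Normalized counts of the 55 genes (rows) in the 9 pools (columns), as log2 of the ratio to the Sal–Sal mean, with blue for lower and red for higher values and colours ending at -2 and 2. The 3 Sal–Coc columns are blue in all rows, as the rule required, and the Coc–Coc columns are close to white in most rows but remain blue in the rows at the top.

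The largest fall was that of Cebpd, the transcription factor C/EBP delta, which is known as an early response gene of inflammation and glucocorticoids. The Sal–Sal pools had 168, 231 and 159 normalized counts of Cebpd, those of Sal–Coc had 36.7, 40.4 and 38.9, and those of Coc–Coc had 126, 57.1 and 50.9. One Coc–Coc pool lay nearer to Sal–Sal and the others stood little above Sal–Coc. Lrp1b, an endocytic receptor of the LDL receptor family, had 384, 422 and 358 normalized counts in Sal–Sal, 90.8, 56.9 and 106 in Sal–Coc and 170.3, 295 and 218 in Coc–Coc. The Coc–Coc pools of Lrp1b lay apart from both other groups. Ago3, an Argonaute protein of the microRNA pathway, had 975, 988 and 1398 in Sal–Sal, 385, 401 and 481 in Sal–Coc and 1012, 1321 and 851 in Coc–Coc. Here the Coc–Coc pools overlapped the Sal–Sal pools, and 94.4% of the log2 fall was regained.

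Among the genes of glutamate and GABA signalling, Grin2b encodes the GluN2B subunit of the NMDA receptor. It had 2434, 2110.0 and 2749.7 normalized counts in Sal–Sal, 1338, 1393 and 1788 in Sal–Coc and 2255, 2868 and 2196 in Coc–Coc. Grm5, the metabotropic receptor mGluR5, had 9368, 9349.7 and 9717 in Sal–Sal, 5482, 6280.1 and 7482 in Sal–Coc and 8217, 10522 and 8944 in Coc–Coc. For both receptors, the Coc–Coc pools extended to either side of the Sal–Sal mean. Grm3, the presynaptic and glial receptor mGluR3, went from 6058 ± 962 in Sal–Sal to 3415 ± 87.2 in Sal–Coc and 5587 ± 715 in Coc–Coc. Slc1a2, the main glial glutamate transporter, had 20817, 17139 and 15419.7 in Sal–Sal, 11411, 7866 and 10164 in Sal–Coc and 20291, 16706 and 14456 in Coc–Coc. Lrrc7 (densin-180), a postsynaptic scaffold, went from 6457 ± 245 to 4351 ± 974 and 6536 ± 738. Gabrb1, the β1 subunit of the GABA-A receptor, differed from these in that its Coc–Coc pools (1469, 1673 and 1334) remained below its Sal–Sal pools (1855, 1728 and 2405) while lying above its Sal–Coc pools (1064, 962 and 1009.7). Psd3, grouped above with intracellular signalling, encodes an exchange factor for the small GTPase Arf6 and went from 4167 ± 692 to 2376 ± 369 and 3416 ± 324.

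**Figure D2:**
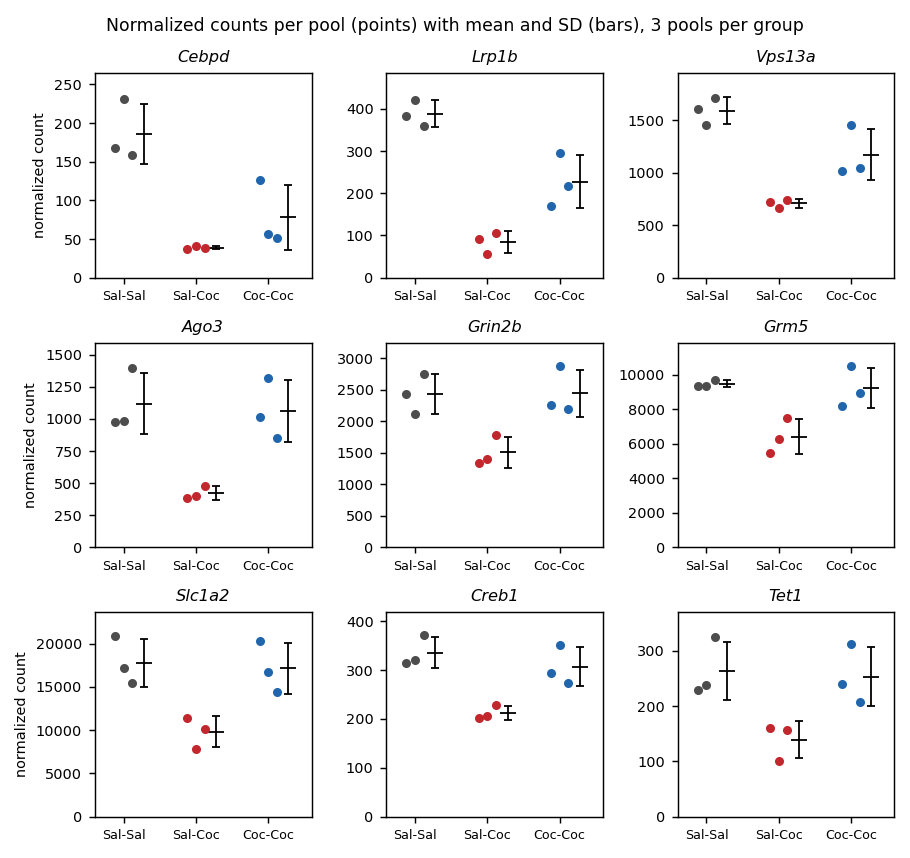
Normalized counts of 9 members in the 3 pools of each group (points), with the mean and SD of each group (horizontal mark and bar). All Sal–Coc points are the lowest, as the rule required, and the Coc–Coc points lie below all Sal–Sal points in Cebpd, Lrp1b and Vps13a but overlap them in the other 6 genes.

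Vps13a and Vps13b encode very large proteins that carry lipids between membranes, and loss of VPS13A causes chorea-acanthocytosis, a disorder of the striatum. Vps13a had 1608, 1457 and 1708 normalized counts in Sal–Sal, 721, 661 and 738 in Sal–Coc and 1016, 1453 and 1046 in Coc–Coc. The highest Coc–Coc pool thus lay just below the lowest Sal–Sal pool, and the others were intermediate. Vps13b had 211, 202 and 237 in Sal–Sal, 133, 108 and 128 in Sal–Coc and 188, 236 and 188 in Coc–Coc. Lyst and Nbeal1 both hold a BEACH domain, which is found in proteins of vesicle traffic. Lyst went from 2218 ± 179 to 1156 ± 165 and 1888 ± 303, and Nbeal1 from 998 ± 256 to 431 ± 10.7 and 676 ± 119, with 53.6% of the log2 fall regained. LOC679894, a gene similar to subunit 2 of the THO complex of mRNA export, had 638, 693 and 648 in Sal–Sal, 297, 313 and 346 in Sal–Coc and 403, 539.7 and 490.4 in Coc–Coc, so its 3 groups did not overlap. Reads that map equally well to its close copy Thoc2 would have been discarded as multiply mapping, and the share lost is not known.

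Of the chromatin regulators, Tet1 oxidises methylated cytosine. Tet1 had 228, 238 and 325 normalized counts in Sal–Sal, 160.4, 101 and 157 in Sal–Coc and 239, 312 and 208 in Coc–Coc. Its Coc–Coc and Sal–Sal pools overlapped. Kdm7a, a histone demethylase, went from 499.9 ± 19.3 to 327 ± 57.7 and 474 ± 76.3, and Phc3, a Polycomb group protein, from 1995 ± 310 to 1361 ± 207 and 2103 ± 232. Creb1, the transcription factor CREB, had 314, 321 and 372 in Sal–Sal, 202, 206 and 229 in Sal–Coc and 294, 351 and 274 in Coc–Coc. Scai, a repressor of the MRTF and SRF pathway, went from 743 ± 97.0 to 332 ± 35.8 and 590.2 ± 102.

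In the signalling group, Egfr (the receptor of epidermal growth factor) went from 583 ± 64.7 in Sal–Sal to 386 ± 39.4 in Sal–Coc and 589.9 ± 59.3 in Coc–Coc. Epha6, an Eph receptor, went from 1737 ± 265 to 916 ± 74.7 and 1423 ± 217. Prex2, an exchange factor for the GTPase Rac, went from 9411 ± 1820 to 4781 ± 393 and 8559 ± 1637, and Taok1, a kinase of the MAP kinase and microtubule pathways, from 2591 ± 209 to 1561 ± 288 and 2427 ± 286. Birc6, a ubiquitin-conjugating inhibitor of apoptosis, went from 5009 ± 351 to 2642 ± 379 and 4124 ± 598, and Vcan, the matrix proteoglycan versican, from 3233 ± 186 to 2191 ± 70.7 and 3161 ± 275. Lpp, an adhesion protein, Ppp1r3g, which targets a phosphatase to glycogen, and Fam228b were expressed at 154 ± 39.2, 191 ± 59.8 and 109 ± 31.4 in Sal–Sal and at 76.8 ± 14.7, 88.1 ± 22.3 and 42.7 ± 4.40 in Sal–Coc. In Coc–Coc these genes stood at 125 ± 21.0, 152 ± 31.6 and 92.0 ± 9.90. Mfap3l and Phc3 were the named genes whose Coc–Coc mean exceeded the Sal–Sal mean by most, at 108% and 105%. The 16 genes without a symbol had means of 44.7 to 3187 normalized counts, 6 of them under 100, and log2 ratios of Sal–Coc to Sal–Sal from -1.55 to -0.51. ENSRNOG00000028137 held the lowest of these ratios and ranged widely in Sal–Sal (194, 275 and 81.0) and in Coc–Coc (216, 187 and 92.4).

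The rule set no direct condition between Coc–Coc and Sal–Sal, but its fold thresholds limit how far a member can lie below Sal–Sal. The same pools were used, so the counts of members given here and below are not independent of the selection. Shares over all tested genes, which were not selected in this way, are given for scale only. The comparison of Coc–Coc with Sal–Sal was put to the quasi-likelihood test of edgeR. The question was whether any of the genes still differed from saline after 5 days of cocaine. Of the 55 genes, all of which passed the filter on low counts, 2 were called lower in Coc–Coc (adjusted p under 0.05 over 15641 genes) and 0 higher. Over all tested genes, 3.75% were called lower and 7.13% higher. The 2 genes were Cebpd (log2 fold change -1.25, SE 0.326, adjusted p = 0.0400) and LOC679894 (-0.46, SE 0.118, adjusted p = 0.0382). Both calls were lost when the fit held only the 6 pools compared (adjusted p = 0.0664 and 0.0522), and neither remained without Coc–Coc pool 2, Coc–Coc pool 3, Sal–Sal pool 1, Sal–Sal pool 2 or Sal–Coc pool 2. Without Coc–Coc pool 2 the member called was Vps13a (adjusted p = 0.0492). At an unadjusted p under 0.05, 8 members were lower and 0 higher, against 13.4% of all tested genes that were lower and 16.6% that were higher.

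Below the threshold but near it stood Vps13a (-0.44, SE 0.131, adjusted p = 0.0600), Gabrb1 (-0.42, SE 0.127, adjusted p = 0.0627), Lrp1b (-0.76, SE 0.236, adjusted p = 0.0652) and Nbeal1 (-0.56, SE 0.176, adjusted p = 0.0688). With DESeq2 these 4 genes were called as well, at adjusted p of 0.0231, 0.0254, 0.0173 and 0.0249. DESeq2 called more genes in general, 2869 of 15641 in both directions together against 1702 with edgeR, and called 6 of the 55 members lower. The study, which used DESeq, reported Lrp1b as downregulated in this comparison, so its place below the threshold depends on the test used. At the other end, the difference between Coc–Coc and Sal–Sal was 0.01 for Grin2b (approximate 95% interval -0.28 to 0.29), -0.04 for Grm5 (-0.28 to 0.20), -0.05 for Slc1a2 (-0.38 to 0.28), 0.02 for Egfr (-0.22 to 0.26) and -0.03 for Vcan (-0.18 to 0.12), all on the log2 scale. These ranges are narrower than 95% intervals of the test, which rests on few pools, and do not show that the groups were equal. For Epha6 the range was -0.55 to -0.02, while the unadjusted p of the edgeR test was 0.0608. The median difference over the 55 genes was -0.08 on the log2 scale, against -0.01 over all tested genes, and 42 of the 55 differences were below 0 (51.5% over all genes). All Coc–Coc pools lay below all Sal–Sal pools in 6 genes (Cebpd, Lrp1b, Vps13a, LOC679894, Gabrb1 and ENSRNOG00000027733), a pattern present in 17.5% of all tested genes. None of the 55 had all Coc–Coc pools above all Sal–Sal pools, a pattern found in 19.2% of tested genes, and the remaining 49 overlapped. An exact permutation test of 3 pools against 3 cannot give a two-sided p below 0.1 and was not used for single genes.

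**Figure D3:**
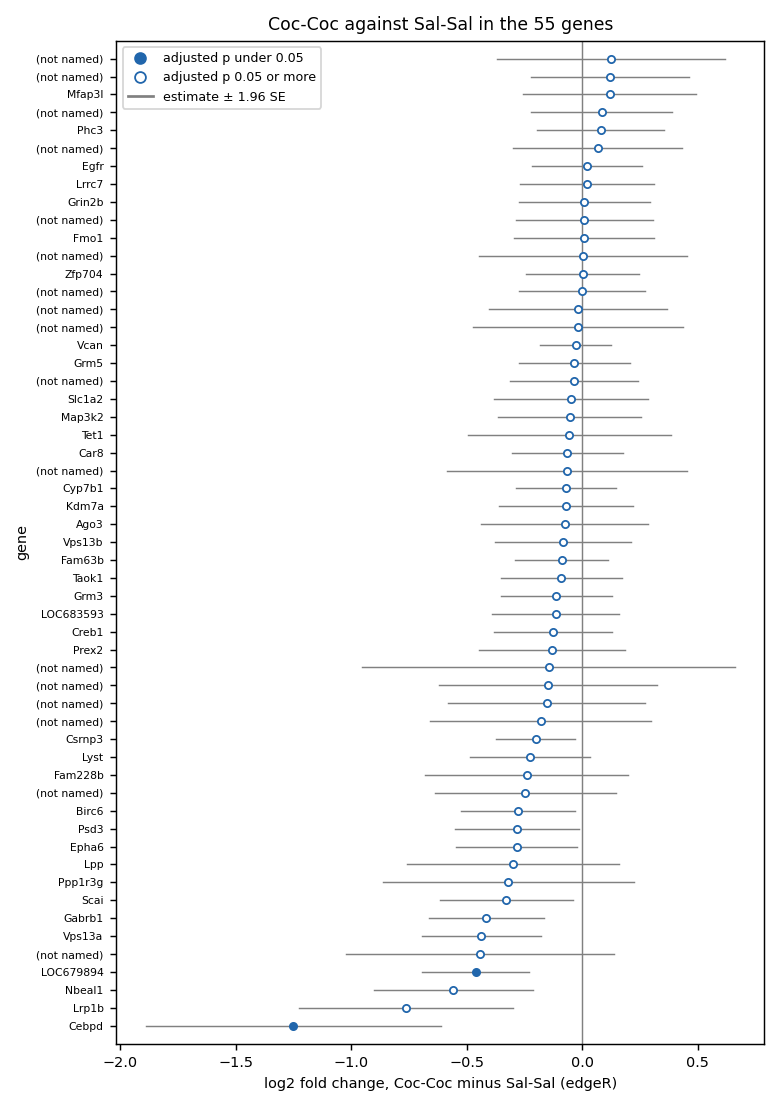
Log2 fold change of Coc–Coc minus Sal–Sal from edgeR for each of the 55 genes (points), with lines for the approximate 95% interval and filled points for an adjusted p under 0.05. The filled points are Cebpd (-1.25) and LOC679894 (-0.46), and 27 genes lie within 0.1 of 0.

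Many of the genes ranked the pools of a group alike, most of all in Coc–Coc. In Coc–Coc, pool 3 was the lowest of the 3 pools for 39 of the 55 genes and pool 2 the highest for 38, whereas over all tested genes pool 3 was the lowest in 32.0% and pool 2 the highest in 29.7%. The median level of the 55 genes, as a percentage of the Sal–Sal mean, was 90.3%, 98.6% and 81.3% in Coc–Coc pools 1, 2 and 3. Pools 1, 2 and 3 of Sal–Coc stood at 58.9%, 53.8% and 63.0%, and those of Sal–Sal at 100.1%, 96.3% and 101%. Coc–Coc pool 2 stood above the Sal–Sal mean in 26 genes, pool 1 in 16 and pool 3 in 4, with 49.3%, 47.2% and 47.9% of all tested genes as background. In Sal–Coc, pool 2 was the lowest for 27 genes and pool 3 the highest for 30, against 29.8% and 30.8% of all tested genes. In Sal–Sal, pools 1, 2 and 3 were the lowest for 15, 18 and 22 genes, against 33.8%, 30.7% and 35.5% of all tested genes. They were the highest for 15, 13 and 27 genes, against 33.3%, 29.8% and 36.8%. Without Coc–Coc pool 3 the median difference of the 55 genes between Coc–Coc and Sal–Sal was -0.01 on the log2 scale, and without pool 2 it was -0.20. The pools hold different rats, and these counts describe 3 pools a group without a test.

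**Figure D4:**
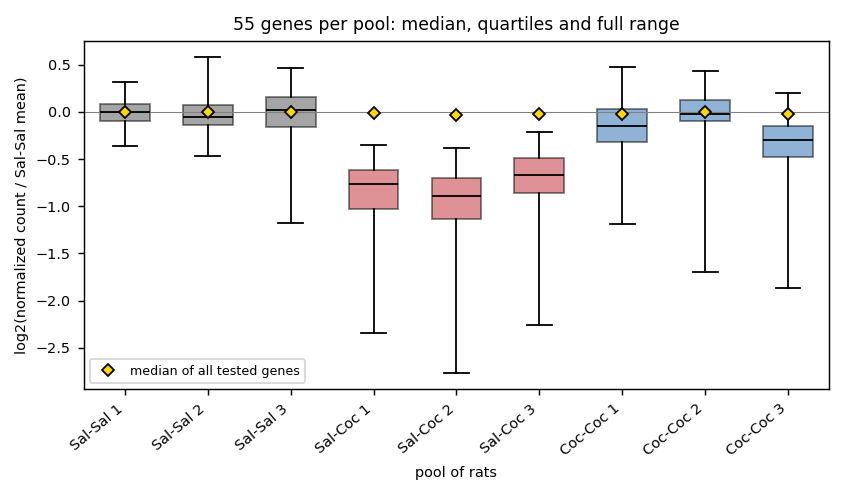
Log2 of the ratio to the Sal–Sal mean over the 55 genes in each pool, with boxes for the quartiles, black lines for the median, whiskers for the full range and diamonds for the median of all tested genes. The Sal–Coc medians lie at -0.76, -0.90 and -0.67, the Coc–Coc medians at -0.15, -0.02 and -0.30, and all diamonds are near 0.

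The markers that could be paired with an identifier also differed between these pools. All of them come from the study's lists of changed genes, so their differences and calls are not independent of these samples. Markers without an identifier could not be examined. Hba-a2, a haemoglobin gene of blood, had 38.3, 11.6 and 24.2 normalized counts in Sal–Sal, 21.1, 48.7 and 31.3 in Sal–Coc and 117, 59.9 and 139 in Coc–Coc, so it was lowest in Coc–Coc pool 2 and highest in pool 3 among the Coc–Coc pools. Hba-a2 was called higher in Coc–Coc than in Sal–Sal (log2 fold change 2.11, adjusted p = 0.0276). Without Coc–Coc pool 3, 0 genes were called in that comparison, so this call did not remain. Vwf, a marker of endothelium, showed the same order in Coc–Coc (667, 536 and 787) and was 506, 321 and 446 in Sal–Sal and 705, 759 and 624 in Sal–Coc. Flt1, another endothelial gene, was also lowest in Coc–Coc pool 2 but highest in pool 1 (1506, 1011 and 1289). Flt1 was higher in Sal–Coc than in Sal–Sal (log2 fold change 0.54, adjusted p = 0.0433), as was Vwf (0.72, adjusted p = 0.0277). Pvalb, of interneurons, had 361, 309 and 467 in Sal–Sal, 398, 438 and 472 in Sal–Coc and 282, 244 and 255 in Coc–Coc. The part of blood, vessels or interneurons in the levels of the 55 genes was not tested.

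Genes of the same families were examined to see whether the members' partners moved with them. Families were listed by function, and of 120 genes in lists holding a member, 30 could be paired with an identifier, 19 of them members and 11 further genes. All 11 come from the study's lists of changed genes, so their share of calls is not independent of these samples. Between Sal–Coc and Sal–Sal, 2 of the 11 were called lower and 7 higher, against 5.86% and 10.6% of all tested genes. Those that fell were Erbb4, a neuregulin receptor related to Egfr (-0.73, SE 0.171, adjusted p = 0.0215), and the GABA-A receptor subunit Gabrg3 (-0.66, SE 0.150, adjusted p = 0.0191). In Coc–Coc these genes did not pass the test against Sal–Sal (log2 fold changes -0.33 and -0.24, adjusted p = 0.228 and 0.304).

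The paired partners of other members, which all come from the study's lists of changed genes, were higher after 1 day of cocaine. Grin1, the obligate GluN1 subunit that assembles with the product of Grin2b, had 18819, 20204 and 20724 normalized counts in Sal–Sal and 24918, 28543 and 28613 in Sal–Coc (log2 fold change 0.46, SE 0.0909, adjusted p = 0.0111). Dnmt3a, which methylates cytosines, the substrate of Tet1 once methylated, rose by 0.73 (SE 0.118, adjusted p = 0.00570). Crtc2, a coactivator of CREB, rose by 0.60 (SE 0.104, adjusted p = 0.00724), and Atf1, a CREB family factor, by 0.42 (SE 0.0979, adjusted p = 0.0202). Tnrc6c, which binds Argonaute proteins such as that of Ago3, rose by 0.52 (SE 0.0979, adjusted p = 0.00947). Nbeal2, the paralogue of Nbeal1, rose by 0.83 (SE 0.175, adjusted p = 0.0140), and Lrp8, a reelin receptor, by 0.47 (SE 0.106, adjusted p = 0.0176). Lrrc1 (0.41, adjusted p = 0.0551) and Crtc3 (0.36, adjusted p = 0.127) did not pass. Against 9 calls among the 11 further genes with all pools, 4 were made without Sal–Sal pool 1, and no sign changed in any alternative run.

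After 5 days of cocaine, most of the 11 paired genes were above saline, again among genes listed by the study as changed. Family genes without an identifier could not be examined, so the direction of the families as a whole is not known. Against Sal–Sal, 7 of the 11 were called higher in Coc–Coc and 0 lower (7.13% and 3.75% of all tested genes), and the 7 were Dnmt3a (0.65, adjusted p = 0.0174), Crtc2 (0.46, adjusted p = 0.0286), Crtc3 (0.60, adjusted p = 0.0363), Atf1 (0.46, adjusted p = 0.0237), Tnrc6c (0.44, adjusted p = 0.0263), Grin1 (0.35, adjusted p = 0.0407) and Lrrc1 (0.58, adjusted p = 0.0266). Nbeal2 (0.59, adjusted p = 0.0572) and Lrp8 (0.29, adjusted p = 0.107) did not pass. None of these 7 calls remained without Coc–Coc pool 2, Coc–Coc pool 3 or Sal–Sal pool 1, 1 of the 11 genes was called without Sal–Sal pool 2 and 4 without Coc–Coc pool 1, while the sign of all 11 differences was the same in every alternative run. The members of the same families were at -0.13 (Creb1), -0.06 (Tet1), -0.08 (Ago3), 0.01 (Grin2b), 0.02 (Lrrc7), 0.02 (Egfr), -0.23 (Lyst), -0.42 (Gabrb1), -0.56 (Nbeal1) and -0.76 (Lrp1b) in that comparison. Whether the members and their partners differed from each other in their response was not tested.

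**Figure D5:**
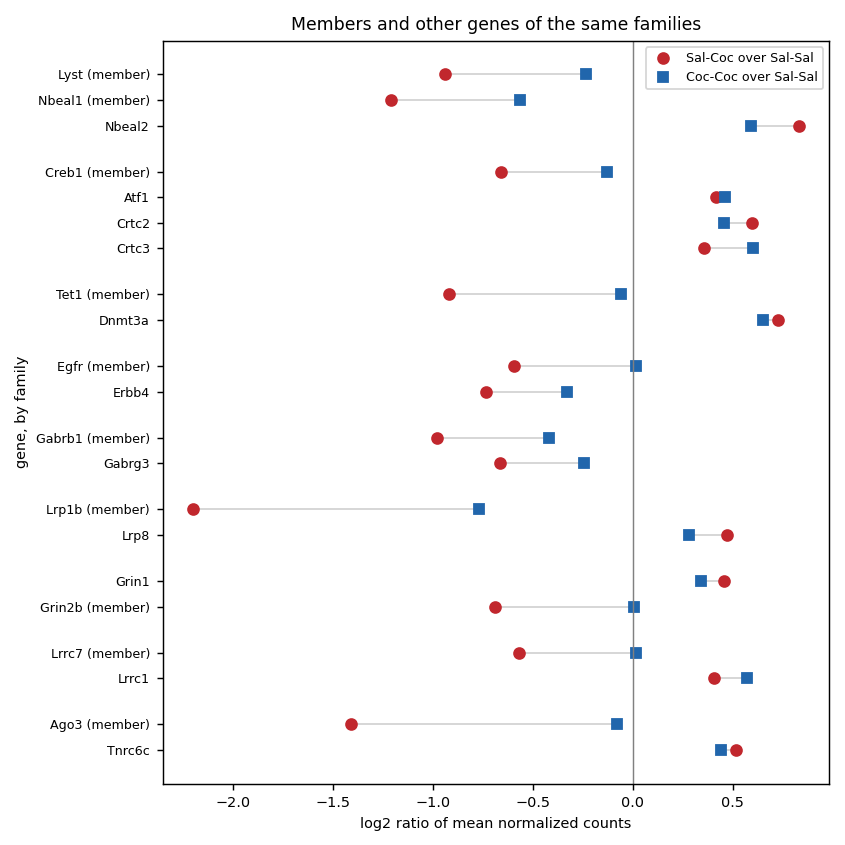
Log2 ratio of mean normalized counts to Sal–Sal in Sal–Coc (red circles) and Coc–Coc (blue squares) for members and for further genes of the same families that could be paired with an identifier. Members lie on the left in Sal–Coc, as the rule required, with Erbb4 and Gabrg3, while the other 9 genes lie on the right in both groups.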

How the data were processed

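RNA-seq libraries (strand-specific, poly(A)-selected, single reads of 75 bases) were made by the authors from ventral striatum. Reads were mapped by the authors to the rat genome of Ensembl with STAR, multiply mapping reads were discarded, and the remaining reads were counted per gene, so the 36 deposited tables (1 per technical replicate) hold unnormalized counts. The strand setting of the counting is not given in the sources used here. The 4 tables of each pool were added up (chi-square per degree of freedom 1.00 to 1.02 within pools, against 33.1 to 52.0 between pools of a group). Sums were divided by median-of-ratios size factors for the rule and for all levels printed. The genes and lists were chosen with earlier results of these data known.

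The comparisons used the quasi-likelihood test of edgeR 4.0.16 (R 4.3.3) on all 9 pools with TMM factors, a filter on low counts by group (filterByExpr) and Benjamini-Hochberg adjustment over 15641 genes, and were tested on simulated data. P-values measure the spread between pools. Alternatives were other scalings and filters, DESeq2 1.42.0, only the 6 pools compared, a replicate block and leaving out each pool.

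The tables do not pair identifiers with symbols, and the RefSeq table holds no Ensembl identifiers. Symbols were joined by value: each published fold change (6 digits) was matched to a ratio of group means of normalized counts, and a symbol was used where 1 identifier remained. Of 2146 published fold changes, 2146 found an identifier and 2062 exactly 1, against 3.73% after a shift of 0.1%. The join was decided with the data seen, names only genes of the published lists, and makes ratios of named genes equal to the published ones by construction. Chromosome, length and biotype were not used, because builds differ. RefSeq start windows were matched by symbol, synonym or gene number. Genes named were the 10 members with a symbol that had the lowest Sal–Coc to Sal–Sal ratio, the highest Coc–Coc to Sal–Coc ratio, the highest mean or the smallest adjusted p, and members of the listed families with their listed partners. Some further members (Map3k2, Kdm7a, Phc3, Fmo1, Car8, Cyp7b1, Zfp704, Fam63b and LOC683593) were named for their roles after their values were seen. Results of some genes are not reported here.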

Additional observations from a re-analysis of the deposited data

How the results depend on the processing

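The number of genes meeting the rule moved from 55 to 31 with total-count scaling (31 shared), 110 with no minimum, which adds low genes by construction, and 16 with a threshold of 0.7. Leaving out 1 pool gave 50 to 131 genes, with 122 (44 shared) without Sal–Coc pool 1, 131 (53 shared) without Sal–Coc pool 3 and 109 (54 shared) without Coc–Coc pool 3. TMM gave 53 and upper-quartile factors 55 (52 shared), a minimum of 100 normalized counts 48, and technical replicate a alone 75 (37 shared, with the minimum lowered to 10). Between Coc–Coc and Sal–Sal, the count of all called genes moved from 1702 to 2869 with DESeq2 and to between 0 and 2131 without 1 pool. It was 0 without Coc–Coc pool 3 (3533 at an unadjusted p under 0.05), 174 without Coc–Coc pool 2, 837 without Coc–Coc pool 1, 292 without Sal–Sal pool 1, 984 without Sal–Sal pool 2 and 1052 without Sal–Coc pool 2. The cause was not tested. Members called lower were 6 with DESeq2, 0 with only the 6 pools compared and 0 to 2 without 1 pool, and no alternative called a member higher. Under the replicate block 1126 genes were called in all, and 1 member, LOC679894, while Cebpd stood at -1.31 (adjusted p = 0.0563). Calls among the 11 further family genes, an alternative chosen after seeing the data, were 4 to 11 (9 with all pools) for Sal–Coc and 0 to 8 (7 with all pools) for Coc–Coc without 1 pool. The pool numbers do not pair the samples: same-numbered pools of 2 groups hold different rats, and their deviations from the group means correlated by -0.02 on average over 9 pairs (range -0.32 to 0.25). Of the 435 alternative values for the 29 genes named by rule, 413 kept the side of the threshold, 16 lost a call (all of Cebpd or LOC679894) and 6 gained one, while 23 changed sign, none of them called. Low counts limit few of the 55 genes: the lowest raw count in a pool was 24.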
